A study of Danio rerio with 6 samples.

Results

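The zebrafish miRNAs miR-17, miR-18, miR-20 and miR-93 were followed in the adult heart before and shortly after injury. They were taken by probe name from a microRNA (miRNA) array: the probes named dre-miR-17a, dre-miR-17a*, dre-miR-18a, dre-miR-18b, dre-miR-18c, dre-miR-20a, dre-miR-20b and dre-miR-93, which make 8 of the 218 zebrafish miRNA probes. The fish were adults of the Ekkwill (EK) strain, and no transgene or drug treatment beyond anaesthesia for the surgery is given in the labels. The 3 control samples were pooled hearts without injury (labelled 0 hours post amputation), and the 3 regenerating samples were pooled hearts collected 6 hours post amputation, once scissors had removed a piece of the organ. How many fish made up a pool is not stated. RNA of all cells of the heart was pooled, so fewer cells of a type and less RNA per cell cannot be told apart. Uninjured replicate 2 and regenerating replicate 3 were stained with Cy5, the other samples with Cy3.

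A miRNA finds its target messenger RNAs mainly through its seed, bases 2 to 8 counted from the 5′ end, so miRNAs with the same seed share many targets. The members come from the miR-17-92 family of gene clusters, in which several miRNAs are cut from one long transcript. In mammals these clusters are driven by MYC and E2F factors, miR-17 and miR-20 restrain the cell cycle inhibitor p21, and the cluster promotes proliferation of heart muscle cells in mice. The zebrafish heart regrows through division of its heart muscle cells.

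The target sequences of the 8 probes, as the deposited spot files give them, are shown because they sort the members into 3 groups by seed, which is in capitals.
miR-17a: cAAAGUGCuuacagugcaggua
miR-20a: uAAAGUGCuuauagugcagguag
miR-20b: cAAAGUGCucacagugcagguag
miR-93: aAAAGUGCuguuugugcaggua
miR-18a: uAAGGUGCaucuagugcagaua
miR-18b: uAAGGUGCauuuagugcagaua
miR-18c: uAAGGUGCaucuuguguaguua
miR-17a*: aCUGCAGUggaggcacuucuag

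The first 4 carry the seed AAAGUGC and made up all 4 probes on the array with that seed. The 3 miR-18 probes carry AAGGUGC. From miR-17a to miR-18a the seed differs by the substitution A4G, with positions counted from 1 at the 5′ end. The last sequence is the opposite strand of the miR-17a hairpin, often called the passenger strand, and shares its seed with 1 other probe, miR-20a*. Within a seed group the targets are close. miR-18a and miR-18b differ by C11U alone. miR-17a and miR-20b lie at an edit distance of 2 (U10C and 1 more base at the 3′ end), and miR-17a and miR-20a at 3. Hybridization may therefore not fully separate miR-18a from miR-18b, or miR-17a from miR-20a and miR-20b. miR-93 stood at an edit distance of at least 5 from every other probe, and miR-17a* of at least 4.

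In the GRCz12tu RefSeq annotation the genes of the members lie in 4 groups of miRNA genes spaced less than 10 kb apart. The largest holds 6 genes, mir17a-1, mir18a, mir19a, mir20a, mir19b and mir92a-1. A related group holds mir17a-2, mir18b and mir92a-2, so the miR-17a probe reads the product of 2 genes. Another holds mir18c, mir20b, mir19c and mir363, and the last mir25, mir19d and mir93. Each of the 4 groups thus holds a single member with the seed AAAGUGC, apart from the 6-gene group, which has miR-17a and miR-20a.

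Each sample has its own set of spot readings, called an array here. The labels do not say whether samples of opposite dye shared a slide. Between samples, the empty spots less their local background correlated most for uninjured replicate 2 (Cy5) and regenerating replicate 1 (Cy3), with a Spearman rho of 0.46, and at 0.23 or less for the other pairs. The arrays differed in background and in the number of probes read. Each probe had 12 spots, and local background was taken from the 16 nearest empty spots. A probe was taken as above background on an array where the mean of its spots, less that background, was over 3 SDs of the empty spots there. From 110 to 217 of 218 probes were above background per array. The 217 belong to regenerating replicate 1, so being above background there says little. The lowest count, 110, belongs to regenerating replicate 2, whose empty spots varied the most. Over the probes above background on all 6 arrays, median log2 intensity before normalization ran from 12.15 to 12.48 for uninjured hearts. Among regenerating hearts it stood at 12.36 for replicate 1 but at 11.44 and 11.18 for replicates 2 and 3. The heart label was borne out by the muscle miRNAs miR-1, miR-133a and miR-499, above background in all 6 samples, while the brain miRNAs miR-9 and miR-124 were above background only in regenerating replicate 1. Markers of other tissues were also read. Of the leukocyte miRNAs, miR-223 had a log2 change of 1.16 (limma adjusted p = 0.131) and miR-150 of -0.038 (limma adjusted p = 0.891), and both arms of miR-142a were above background in 1 sample and not tested. The skeletal muscle miRNA miR-206 had a log2 change of 2.47 (limma adjusted p = 0.115), with all regenerating samples higher. Of the 3 epithelial miRNAs, miR-200b fell by 0.81 on the log2 scale (limma adjusted p = 0.0352), while miR-200a at -0.42 and miR-141 at -0.28 did not pass (limma adjusted p = 0.220 and 0.519). The red blood cell miR-451, endothelial miR-126, smooth muscle miR-143 and miR-145 and liver miR-122 did not pass (limma adjusted p from 0.181 to 0.831), and miR-144 was not tested. Their part in the results on the members was not tested.

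Members were read unequally well. The 4 miRNAs with the seed AAAGUGC were above background in all 6 samples. Their 12 spots agreed closely, with median coefficients of variation across the 6 arrays of 3.89% for miR-17a, 5.33% for miR-20a, 5.32% for miR-20b and 6.19% for miR-93. The exception was miR-93 on regenerating replicate 2, at 20.2%, where its spots ran from 331.5 to 638 above background. The other 4 members were dim, with median coefficients of variation of 25.3% for miR-17a*, 26.0% for miR-18a, 41.6% for miR-18c and 79.3% for miR-18b. Spots of 1 array are technical repeats and were never counted as replicates.

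**Figure D1:**
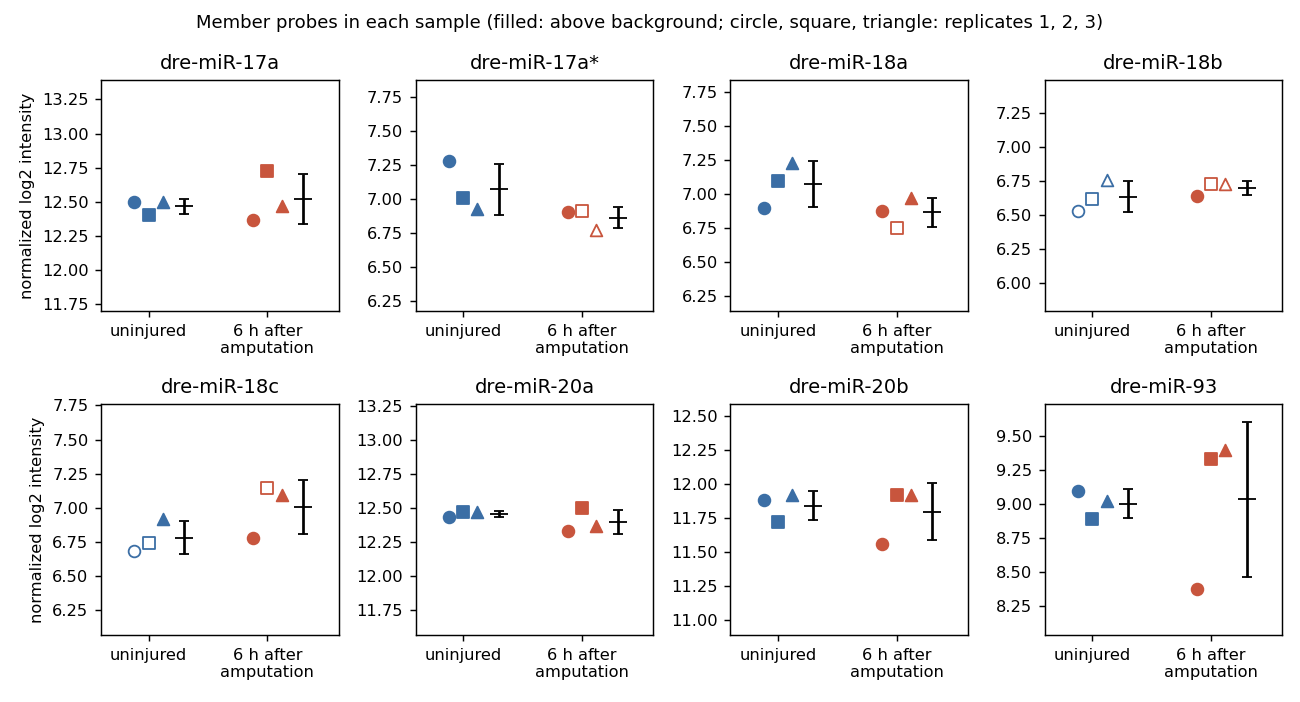
Normalized log2 intensity of the 8 member probes (vertical axis, same span in each panel) in the 3 uninjured and 3 regenerating samples. Filled points are above background, hollow points are not, and bars give mean and SD; the groups overlap in every panel except that of miR-17a*, and miR-93 in regenerating replicate 1 lies far below the other samples.

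Regenerating hearts were compared with uninjured ones to see whether any member had moved by 6 hours. Of the 8 members 7 were above background in at least 3 samples and were tested; miR-18b was not. With limma and a term for dye, 0 of the 7 passed an adjusted p of 0.05, against 5 of the 138 probes tested (3.62%; 1.45% higher and 2.17% lower). At an unadjusted p below 0.05 there were 0 of 7 members, against 28 of 138 (20.3%). The median log2 change, regenerating minus uninjured, was -0.044 over the 7 members and -0.052 over all 138 probes, with 3 members above 0 and 4 below. The sizes of change ran from 0.032 to 0.22 with a median of 0.058, where the median over all probes was 0.24. Changes of dim probes are pulled towards 0 by the offset of 50 added to each intensity.

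miR-17a, the founding member, stood at a normalized log2 intensity of 12.50, 12.40 and 12.50 in the uninjured samples (here and below in the order of replicates 1, 2 and 3) and at 12.37, 12.72 and 12.47 in the regenerating ones. The groups overlapped, with the highest and the lowest value both among the regenerating samples. The means were 12.46 ± 0.058 and 12.52 ± 0.18 (SD, n = 3 each), which gives a log2 change of 0.055 (SE 0.14, 95% interval -0.30 to 0.41, limma adjusted p = 0.843).

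miR-20a, a neighbour of miR-17a in the 6-gene group, stood at 12.43, 12.47 and 12.47 in the uninjured samples and at 12.33, 12.50 and 12.37 in the regenerating ones. Regenerating replicates 1 and 3 lay below all uninjured samples and regenerating replicate 2 above them. The means were 12.46 ± 0.022 and 12.40 ± 0.089 (SD, n = 3 each), which gives a log2 change of -0.058 (SE 0.12, 95% interval -0.36 to 0.25, limma adjusted p = 0.831).

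miR-20b, from the group with mir18c, stood at 11.89, 11.72 and 11.92 in the uninjured samples and at 11.56, 11.92 and 11.92 in the regenerating ones. Only regenerating replicate 1 lay outside the uninjured range. The means were 11.84 ± 0.10 and 11.80 ± 0.21 (SD, n = 3 each), which gives a log2 change of -0.044 (SE 0.16, 95% interval -0.44 to 0.35, limma adjusted p = 0.891). None of these 3 differed beyond the spread between samples, and changes as large as the bounds of the intervals lie within the error.

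miR-93, in mammals encoded together with miR-25 within the MCM7 gene of the replication helicase, was the member that varied most. It stood at 9.10, 8.89 and 9.02 in the uninjured samples and at 8.37, 9.33 and 9.39 in the regenerating ones. Regenerating replicate 1 lay below all uninjured samples and the other regenerating samples lay above all of them. The SD was 0.11 among uninjured and 0.57 among regenerating samples (n = 3 each), and the log2 change was 0.032 (SE 0.30, 95% interval -0.70 to 0.77, limma adjusted p = 0.959). Without regenerating replicate 1 the log2 change was 0.38 (limma adjusted p = 0.0971), and over the fits that left out 1 sample it ran from -0.23 to 0.38.

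miR-18a, which in mammals represses connective tissue growth factor, stood at 6.90, 7.10 and 7.23 in the uninjured samples and at 6.87, 6.75 and 6.97 in the regenerating ones. It was above background in all 3 uninjured samples and in 2 of the 3 regenerating ones, and the groups overlapped. The log2 change was -0.21 (SE 0.15, 95% interval -0.57 to 0.15, limma adjusted p = 0.519), and with plain background subtraction it was -0.88, outside that interval.

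miR-18c stood at 6.68, 6.74 and 6.92 in the uninjured samples and at 6.77, 7.14 and 7.10 in the regenerating ones. It was above background in uninjured replicate 3 and regenerating replicates 1 and 3, the fewest samples that met the filter for testing. Of these, regenerating replicate 1 had nearly all probes above background. The highest value came from regenerating replicate 2, where the probe read 126.2, below the threshold of 142.1. The groups overlapped, and the log2 change was 0.22 (SE 0.16, 95% interval -0.17 to 0.62, limma adjusted p = 0.519). With plain background subtraction it was 0.83, and with GC correction 0.52.

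miR-18b was not well above background in any uninjured sample and was above it in 1 regenerating sample, replicate 1. Its background-subtracted means of 7.33, 1.06 and 28.8 in the uninjured samples lay below the thresholds of 17.1, 10.8 and 30.9 on those arrays. In the regenerating samples it read 48.3, 89.0 and 8.16 and passed the threshold of 37.2 on the first of these arrays alone. No fold change is given.

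miR-17a*, the passenger strand, stood at 7.28, 7.01 and 6.93 in the uninjured samples and at 6.90, 6.92 and 6.77 in the regenerating ones. All 3 regenerating samples lay below all 3 uninjured samples, by a margin of hundredths between the nearest values. It was the 1 tested member whose groups did not overlap, where 33 of all 138 probes (23.9%; 9.42% with regenerating samples higher, 14.5% lower) did not. It was above background in all 3 uninjured samples and, among the regenerating ones, only in replicate 1. The uninjured samples alone thus met the filter for testing, and the separation is not read as a result. Before normalization its background-subtracted means were 48.5, 23.6 and 44.0 in the uninjured samples. In the regenerating ones they were 76.3, 115.3 and 9.20, so the groups overlapped. The log2 change was -0.21 (SE 0.14, 95% interval -0.56 to 0.15, limma adjusted p = 0.519), against -0.57 with plain background subtraction and -0.52 with GC correction.

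**Figure D2:**
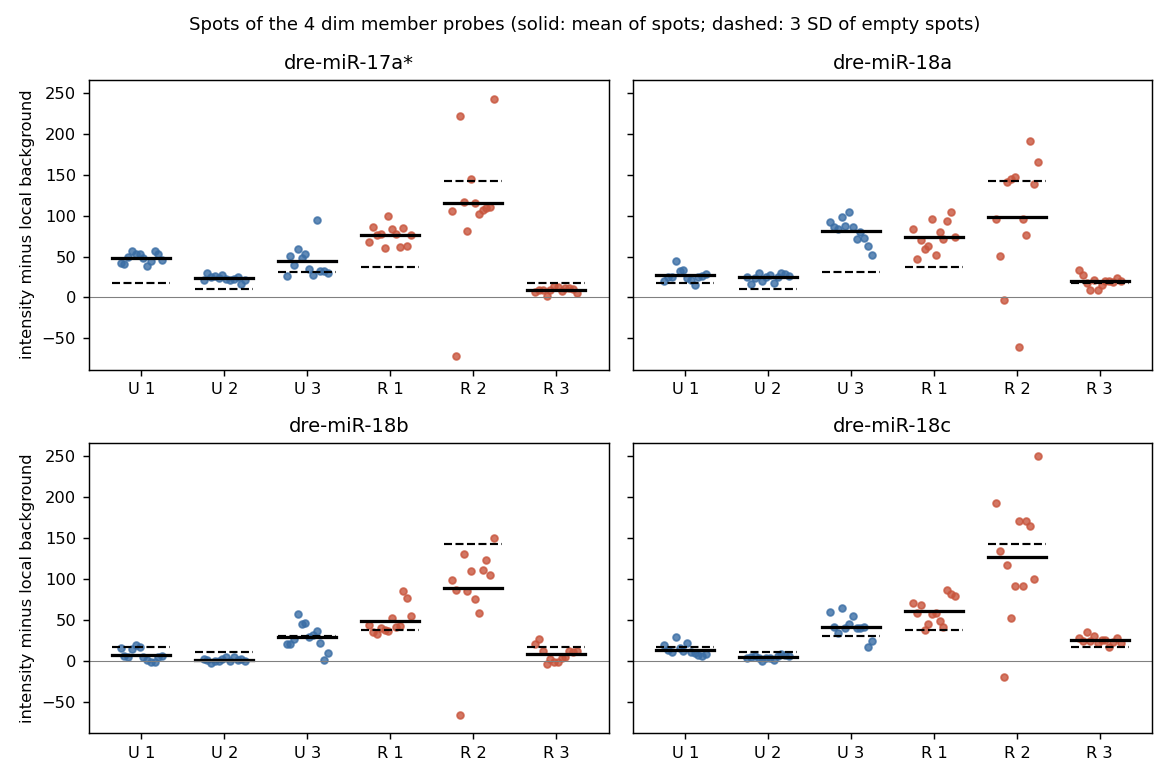
Intensity minus local background of the 12 spots of each of the 4 dim members (vertical axis) on each array, U for uninjured and R for regenerating replicates, with the mean of the spots as a solid line and 3 SDs of the empty spots as a dashed line. On regenerating replicate 2 the spots scatter widely and every mean lies below the dashed line.

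The authors' deposited value table gives a second reading of the same arrays, in intensities whose background and scaling methods the labels do not state. In the authors' deposited table miR-17a read 5146, 4618 and 4852 in the uninjured samples and 4086, 5137 and 4351 in the regenerating ones. miR-93 read 322, 250.0 and 390.2 in the uninjured samples and 193, 494 and 420.1 in the regenerating ones of the authors' deposited table. As in the normalized values computed here, regenerating replicate 1 was the lowest for miR-93 and the other regenerating samples were the highest. Fitted on log2 of these values plus 50, 0 of the 7 tested members passed.

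The level of the bright members depended on how arrays were scaled to each other. Before any scaling, miR-17a read 7231, 7783 and 7333 above background in the uninjured samples and 6292, 3996 and 3215 in the regenerating ones. All regenerating samples lay below all uninjured ones, and the same order held for miR-20a and miR-20b. For miR-93 the groups overlapped, at 409, 357 and 730 in the uninjured samples and 368, 486 and 292 in the regenerating ones. Its lowest value before scaling was in regenerating replicate 3, not in replicate 1, and its highest in uninjured replicate 3. The ratio of uninjured to regenerating means was 1.65 for miR-17a, 1.82 for miR-20a and 1.64 for miR-20b. It was 1.31 for miR-93. The dim tested members went the other way with overlapping groups, at 0.58 for miR-17a*, 0.69 for miR-18a and 0.28 for miR-18c. None of them was above background on regenerating replicate 2. How many of all probes read lower in all regenerating samples before scaling was not counted, so the separation is not read as particular to these members. The calibration sequence of probe Ctr09-3P, 1 of 8 such probes used, read 29466, 34904 and 33747 in the uninjured samples and 33218, 39469 and 47947 in the regenerating ones. For this probe regenerating replicates 2 and 3 thus lay above all uninjured samples, while replicate 1 lay within their range. Replicates 2 and 3 lay above them for the other calibration probes too, except Ctr08-3P. For Ctr08-3P regenerating replicate 3 read 94.8 and uninjured replicate 3 read 101.0. Regenerating replicate 1 lay below the uninjured range for Ctr06-3P and above it for Ctr07-3P and Ctr10-3P. What part the amount of labelled RNA had in these readings was not tested.

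With 1 scaling factor per array in place of quantile normalization, the median log2 change of all 138 probes moved from -0.052 to 0.13 (75th percentile), 0.36 (median) and -0.91 (calibration spots). Less that median, miR-17a stood at -0.47, miR-20a at -0.62, miR-20b at -0.43 and miR-93 at 0.11 under each of the 3, which are equal by construction. The dim miR-17a*, miR-18a and miR-18c stood at 0.85, 0.85 and 1.24 under the same scalings. With the offset added after 75th percentile scaling, chosen after the data were examined, these 3 stood at 0.39, 0.39 and 0.85. 0 of 7 members passed in limma in any of these fits. The sign of the log2 change itself turned with this choice for miR-17a under all 3 factors, for miR-17a* and miR-18a under the percentile and the median, and for miR-93 under the calibration spots.

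**Figure D3:**
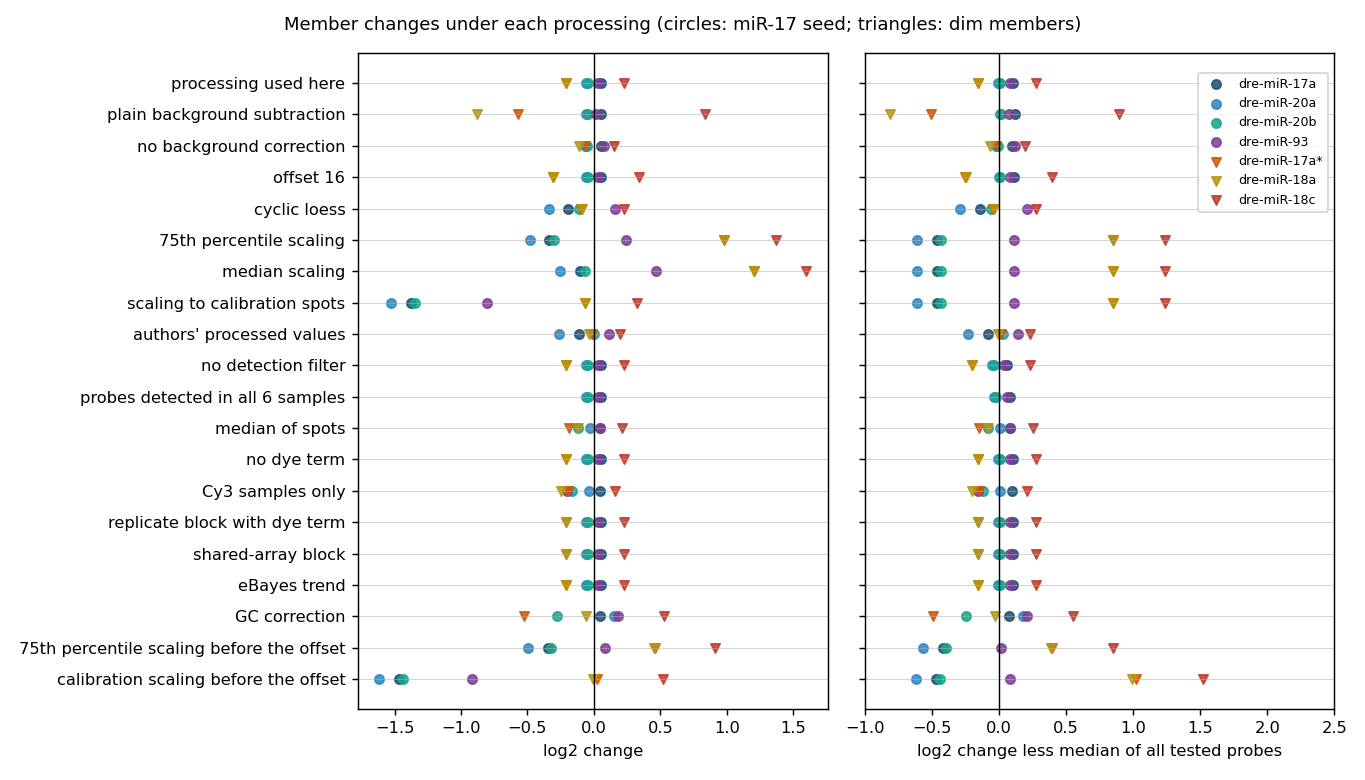
Log2 change of the 7 tested members (horizontal axis, left) and the same less the median of all tested probes (right) under each processing, circles for the seed AAAGUGC and triangles for the dim members. Scaling each array by 1 factor spreads the points apart, and plain background subtraction and GC correction also spread the dim members.

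Members were then set against miR-17a within each array, which shows whether they moved unequally. With quantile normalization the change of the log2 ratio to miR-17a, regenerating minus uninjured, was -0.26 for miR-17a*, -0.26 for miR-18a, 0.17 for miR-18c, -0.11 for miR-20a, -0.099 for miR-20b and -0.023 for miR-93. The exact two-sided permutation p was 0.2 to 1 over these 6 comparisons (adjusted 0.4 to 1), where 3 samples against 3 cannot go below 0.1.

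The first of these sets the 2 strands side by side, but miR-17a* was not above background in regenerating replicates 2 and 3. The balance of the strands can therefore not be read from it in those samples. The log2 ratio of miR-17a* to miR-17a was -5.22, -5.39 and -5.57 in the uninjured samples and -5.46, -5.81 and -5.69 in the regenerating ones, with overlapping groups. It compares 2 probes, so its level has no meaning as a balance, and its change rests on a dim probe. With 1 scaling factor per array, a setting chosen for the ratios after the data were examined, the change of this ratio was 1.31, of the opposite sign.

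The tests of ratios with 1 factor per array were likewise chosen after the data were examined. There the ratio of miR-20a to miR-17a was -0.033, 0.043 and -0.0086 on the log2 scale in the uninjured samples and -0.066, -0.16 and -0.23 in the regenerating ones. All regenerating samples lay below all uninjured ones, by a mean of 0.15 on the log2 scale (-0.15, exact permutation p = 0.1, adjusted 0.15, n = 3 each). The ratio of miR-20b to miR-17a changed by 0.034 (exact permutation p = 0.5). The ratios of the dim miR-17a*, miR-18a and miR-18c to miR-17a changed by 1.31, 1.31 and 1.70 (exact permutation p = 0.1 each, adjusted 0.15), the opposite of the sign with quantile normalization for the first 2. These dim readings lie near background on several arrays, and the offset was added before this scaling. The mean of miR-17a above background was 7449 in uninjured and 4501 in regenerating samples. Before scaling, the ratio of uninjured to regenerating means was 0.58 for miR-17a*, 0.69 for miR-18a and 0.28 for miR-18c, with overlapping groups. What part the offset had in the rises of these members against miR-17a was not tested. The partners miR-19a and miR-20a* also stood above the median of all probes with median scaling, by 0.86 and 0.91. How many other dim probes did so was not counted, so these rises are not read as particular to the members.

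**Figure D4:**
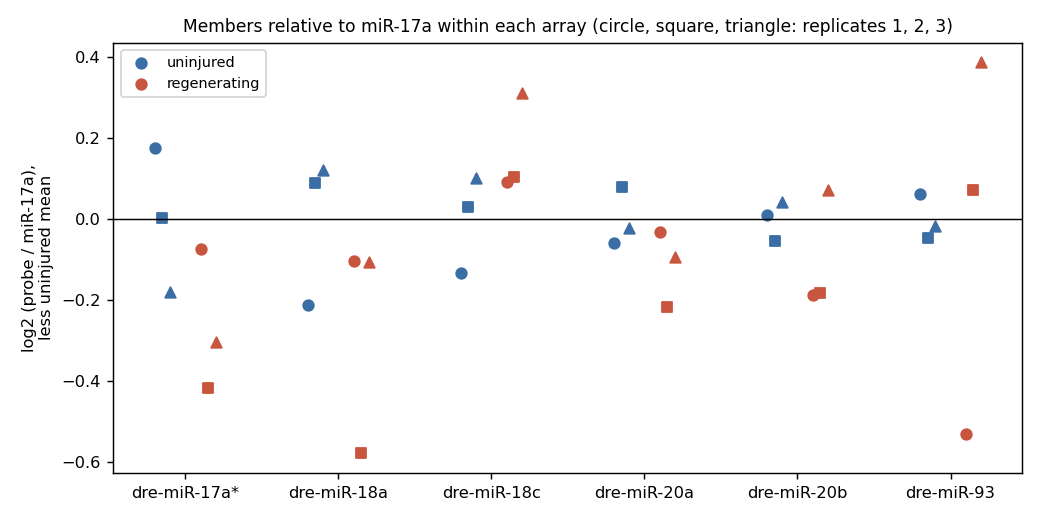
Log2 ratio of each tested member to miR-17a within an array after quantile normalization, less the mean of the uninjured samples (vertical axis), for the 6 members compared. Regenerating samples overlap uninjured ones for each member, and the regenerating samples of miR-93 spread from below to above the uninjured ones.

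Other miRNAs of the families found in these clusters were described beside the members, from a list of 12 probes on the array taken by name. The list holds miR-92b (log2 change 0.15), whose gene lies in none of the 4 gene groups. The counts below include it, so they are not of genomic neighbours alone. They include the miR-19 miRNAs with the seed GUGCAAA, and the miR-25 and miR-92 miRNAs with the seed AUUGCAC. Of the 12, 8 were tested and 0 passed, with a median log2 change of -0.17, 2 above 0 and 6 below. At an unadjusted p below 0.05 there were 3 of 8, and the groups did not overlap for 3 of 8, against 20.3% and 23.9% of all probes. The 4 with the largest size of change were miR-19c at -0.69 (limma adjusted p = 0.115), miR-19b at -0.60 (limma adjusted p = 0.106), miR-25 at 0.50 (limma adjusted p = 0.130) and miR-19a at -0.19 (limma adjusted p = 0.576). Among them miR-19a was dim, above background in only 2 uninjured and 1 regenerating samples. Without regenerating replicate 1, miR-19b, miR-19c and miR-25 passed at -0.59, -0.79 and 0.57 (limma adjusted p = 0.0425, 0.0461 and 0.0443). In that fit 29 of all 138 probes passed (21.0%), so 3 of 8 is read against that share. At an unadjusted p below 0.01 the counts were 2 of 8 partners, miR-19b and miR-19c, and 11 of 138 probes (7.97%).

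Neighbours in the genome were set side by side. In the 6-gene group miR-17a stood at 0.055, miR-18a at -0.21, miR-19a at -0.19, miR-20a at -0.058, miR-19b at -0.60 and miR-92a at -0.18. Of these miR-18a and miR-19a were dim. In the group of mir18c, miR-18c stood at 0.22, miR-20b at -0.044 and miR-19c at -0.69. In the group of mir93, miR-93 stood at 0.032, miR-19d at -0.16 and miR-25 at 0.50.

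Within each array the log2 ratio of miR-19b to miR-20a was -2.53, -2.57 and -2.86 in the uninjured samples and -3.13, -3.40 and -3.04 in the regenerating ones. All regenerating samples lay below all uninjured ones, by a mean log2 difference of -0.54. The ratio of miR-19c to miR-20b had a mean difference of -0.65 with overlapping groups, and that of miR-25 to miR-93 of 0.46 with overlapping groups. The groups also overlapped for miR-19a to miR-20a (-0.13), miR-92a to miR-20a (-0.12) and miR-19d to miR-93 (-0.19), so they separated for 1 of the 6 ratios. These ratios after quantile normalization are given as values, with no test, and that of miR-19a rests on a dim probe. They were not worked out with 1 scaling factor per array, under which some ratios to miR-17a turned sign. Over all alternatives the log2 change ran from -1.74 to -0.33 for miR-19b and -1.61 to 0.15 for miR-20a. It ran from -1.42 to 0.0032 for miR-19c, -1.43 to 0.088 for miR-20b, -1.03 to 0.57 for miR-25 and -0.92 to 0.47 for miR-93.

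**Figure D5:**
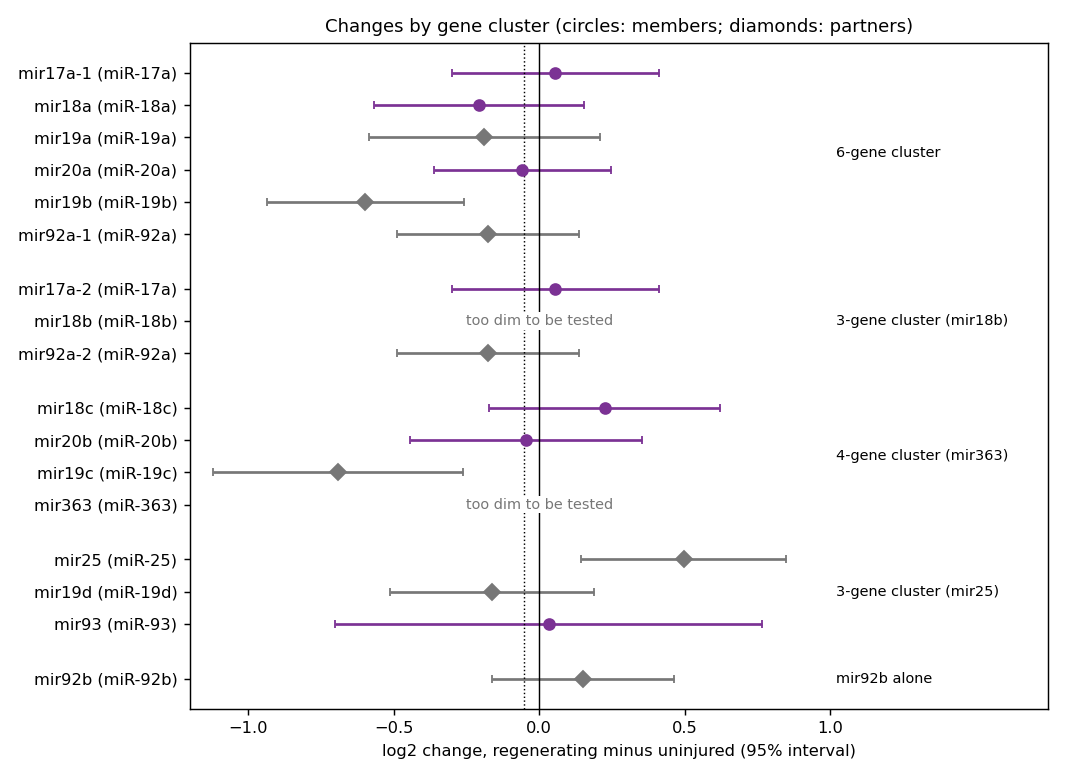
Log2 change (horizontal axis, regenerating minus uninjured) with 95% limma intervals, by gene group of the annotation, circles for members and diamonds for partners; the dotted line marks the median of all tested probes at -0.052. Every member's interval spans 0, while those of miR-19b, miR-19c and miR-25 do not. The intervals are not adjusted for the number of probes, and none of these partners passed (limma adjusted p from 0.106 to 0.130). Probes of 2 genes appear under each gene.

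The probes whose profile over the 6 samples lay closest to the mean of the 4 miRNAs with the seed AAAGUGC were let-7i, miR-155 and miR-24, with root mean square differences of 0.095, 0.10 and 0.11 on the log2 scale after centring. Of these, miR-155 was above background in only 2 uninjured and 1 regenerating samples, so its likeness rests on readings near background. The median over the 131 tested probes that are no members was 0.27. Within the 4, miR-93 lay 0.27 from miR-17a, 0.31 from miR-20a and 0.22 from miR-20b, so their mean need not stand for each of them. For the mean of miR-18a and miR-18c the closest probes were miR-125b, miR-30d and miR-30c, at 0.046, 0.068 and 0.072. That mean stands for neither miRNA, as their log2 changes of -0.21 and 0.22 have opposite signs. The 2 lay 0.261 from each other, where the median over the 131 probes from their mean was 0.256. These likenesses are descriptions over 6 samples with no test. Among the members themselves the closest pair was miR-17a and miR-20a at 0.089 and the farthest were miR-93 with miR-17a* and with miR-18a, both at 0.38.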

How the data were processed

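Per the file headers, the deposited spot files hold, for each spot, a mean intensity (linear, background not removed) and an SD. Per the labels' protocols, a service provider tailed RNA under 300 nucleotides with poly(A) and stained it with Cy3 or Cy5. The scanner is not stated. The authors' deposited table of processed intensities served as an alternative.

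Local background was removed with limma 3.58.1 in R 4.3.3 (normexp, offset 50). Values were put on the log2 scale, averaged over the 12 spots of a probe and quantile normalized over the 218 miRNA probes. The 138 probes above background in at least 3 of 6 samples were fitted with limma (lmFit and eBayes) with group and dye, and p-values were adjusted by Benjamini-Hochberg over all 138 at a threshold of 0.05. Intervals are limma's 95% intervals. Members set against miR-17a were compared by an exact permutation test over samples. The functions were tested on simulated spots.

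The named probes are all 8 members, the 4 tested cluster partners with the largest change, and the 3 probes with the most similar profile to each seed group. Also named are markers of tissues, the passenger strand miR-20a* for its seed, miR-19d and miR-92a as genomic neighbours, and miR-92b as a listed partner outside the gene groups. Members, lists and alternatives were chosen with earlier results of these data known. The series design calls the replicates biological, each a pool of hearts. The number of arrays limits the precision.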

Additional observations from a re-analysis of the deposited data

How the results depend on the processing

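In limma 0 of the tested members passed under any alternative: background correction, offset, scaling, the authors' processed values, detection filters, median of spots, dye, blocks, eBayes trend, GC correction, an unadjusted p below 0.01 and leaving out 1 sample. Cluster partners past the threshold numbered 0, except 2 at an unadjusted p below 0.01 (11 of all 138 probes) and 3 without regenerating replicate 1 (29 of 138). With the replicate number as a block, beside dye, 0 members and 0 partners passed, and 1 of 138 probes against 5. Deviations from the group means correlated across probes with r of 0.14, -0.45 and 0.37 for same-numbered samples. The largest r between the groups was 0.50, for uninjured replicate 2 and regenerating replicate 1. Deviations within a group of 3 are tied to each other, so these values cannot show whether the numbers mark pairs. Over all probes the calls were 5 (2 higher, 3 lower), but 16 with calibration scaling (2 higher, 14 lower), 7 with median scaling (7 higher, 0 lower), 5 with 75th percentile scaling (5 higher, 0 lower), 9 with uninjured replicate 2 and regenerating replicate 1 taken as 1 slide (a pair picked from their empty spots), 8 and 10 with percentile and calibration scaling before the offset, 3 with plain subtraction, an eBayes trend or GC correction, 0 with Cy3 samples only, and 0 to 29 without 1 sample, the highest without regenerating replicate 1.

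Signs turned as follows, and the cause was not tested. The log2 change of miR-17a was -0.19 with cyclic loess, -0.33 with 75th percentile, -0.10 with median and -1.38 with calibration scaling, and -0.11 in the authors' processed values. That of miR-17a* was 0.98 and 1.21, and of miR-18a 0.98 and 1.21, with percentile and median scaling. That of miR-93 was -0.81 with calibration scaling and -0.20 with Cy3 samples only, and that of miR-20a was 0.15 with GC correction. In scalings before the offset, chosen after the data were examined, percentile scaling gave -0.35 for miR-17a, 0.46 for miR-17a* and 0.45 for miR-18a, and calibration scaling -1.46, 0.025 for miR-17a* and -0.92 for miR-93. Against miR-17a, median scaling (also chosen after the data were examined) gave 1.31 for miR-17a*, 1.31 for miR-18a, 0.034 for miR-20b and 0.57 for miR-93; the authors' values gave 0.093, 0.070, 0.11 and 0.22. For miR-93 against miR-17a no background correction gave 0.019 and the median of spots 0.00035. Without 1 sample the log2 change ran from -0.036 to 0.15 for miR-17a, -0.15 to 0.088 for miR-20b and -0.23 to 0.38 for miR-93. The difference of miR-93 from miR-17a ran from -0.23 to 0.25, so its sign turned too. The log2 change kept its sign for the other tested members. It ran from -0.29 to -0.11 for miR-17a*, -0.29 to -0.095 for miR-18a, 0.15 to 0.32 for miR-18c and -0.11 to -0.016 for miR-20a. Dim members rest on signals near background.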
